A study of Mus musculus with 6 samples.

Results

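Keratins are the intermediate filament proteins of epithelial cells, and each filament is built from pairs of an acidic type I and a basic type II chain. In the epidermis, keratin 5 (type II) and keratin 14 (type I) form the filaments of the basal layer, and cells that leave this layer switch to keratin 1 (type II) and keratin 10 (type I). Keratin 15 is a further type I chain of basal cells and of the hair follicle bulge, keratin 2 is a type II chain of upper suprabasal cells that in the mouse is best known from ear, tail and sole skin, keratin 77 is a type II chain of suprabasal cells, keratin 79 marks the upper hair follicle and sebaceous duct, and keratin 80 and keratin 23 are further epithelial keratins of type II and type I.

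The 10 genes of these keratins, *Krt5*, *Krt14*, *Krt15*, *Krt1*, *Krt10*, *Krt2*, *Krt77*, *Krt79*, *Krt80* and *Krt23*, were chosen by name as keratins of the interfollicular epidermis and upper follicle. All 10 were found by Ensembl identifier among the 26579 genes of the count table, and 9 of them were among the 15102 genes that were abundant enough to test. They were measured by RNA-Seq in whole skin from the dorsal neck of female mice at postnatal day 33, with 3 wild type and 3 YAP2-5SA-∆C mice that were littermates. YAP2-5SA-∆C mice carry a transgene for a mildly activated mutant of the transcriptional coactivator YAP. The wild type mice lacked the transgene. The transgene is expressed in basal keratinocytes that make keratin 5 and keratin 14, so it is active in the cells of *Krt5* and *Krt14*. The transgenic mice were taken when a visible skin phenotype first appeared. The question was how epidermal YAP activity changes gene expression in the skin. Because whole skin was sequenced, more cells of a type and more RNA per cell cannot be told apart in any value below.

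Total counts per library ranged from 11225705 to 19505036. The 10 keratins took 0.799% to 1.09% of the counts of the wild type libraries and 1.31% to 1.99% of those of the YAP2-5SA-∆C libraries, so the shares of the genotypes did not overlap. YAP2-5SA-∆C replicate 2 stood apart from the other libraries, at 2.24 on dimension 1 of a multidimensional scaling plot of log2 CPM against 0.30 and 0.26 for the other YAP2-5SA-∆C libraries. Several values that moved without it are also given without it. *Yap1* had 125 to 142 CPM in wild type and 130 to 144 CPM in YAP2-5SA-∆C skin, and it is not known if this gene also took up transgene reads. CPM are counts scaled to library size, here after TMM scaling. Apart from *Krt2*, each of the 10 keratins had between 1601 and 99681 counts in every library.

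All 10 genes lie on the minus strand of the mouse genome (GRCm38) and are protein-coding. The type I genes lie on chromosome 11 and have 8 exons in the transcript with the longest coding sequence: *Krt10* (ENSMUSG00000019761) from 99385254 to 99389364, *Krt23* (ENSMUSG00000006777) from 99477974 to 99493137, *Krt15* (ENSMUSG00000054146) from 100131758 to 100135928 and *Krt14* (ENSMUSG00000045545) from 100203162 to 100207548. The type II genes lie on chromosome 15 and have 9 exons: *Krt80* (ENSMUSG00000037185) from 101347444 to 101370162, *Krt5* (ENSMUSG00000061527) from 101707070 to 101712898, *Krt2* (ENSMUSG00000064201) from 101810689 to 101818169, *Krt1* (ENSMUSG00000046834) from 101845426 to 101850794, *Krt77* (ENSMUSG00000067594) from 101858731 to 101869705 and *Krt79* (ENSMUSG00000061397) from 101929332 to 101940324. The annotated proteins range from 422 residues for *Krt23* to 707 residues for *Krt2*.

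Promoter sequence, 250 bases before to 50 bases after the RefSeq start on GRCm38.p6, was used for 6 of the 10 genes (*Krt5*, *Krt10*, *Krt2*, *Krt77*, *Krt79* and *Krt23*), whose RefSeq start lay within 17 bases of the annotated 5′ end of the gene. The start that the RefSeq table gives for *Krt14* lies 1518 bases inside the gene, so its sequence was left out, and *Krt15*, *Krt1* and *Krt80* had no entry. The sequences were searched on both strands for TATAAA, the core of the TATA box, for GGAATG, the word of the TEAD factors through which YAP acts, and for TGANTCA, the word of AP-1. The TATA word was present in 1 of the 6 promoters, that of *Krt10*, and in 13.6% of all 32851 promoters. The TEAD word was present in 0 of the 6 and in 14.7% of all promoters, and the AP-1 word in 0 of the 6 and in 7.81% of all promoters. A match of these letters is a description and not a bound site, and no match says only that the letters are not in this window. The stretch around the match in *Krt10* is shown because it was the only match found, with the TATA word in capitals, 5′ to 3′ on the minus strand. The word begins 26 bases before the start of *Krt10*.
Krt10, chr11:99389373-99389402: gccctctcagtaTATAAAggctcggcactg

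Of the keratins of the basal layer, *Krt14* was higher in every YAP2-5SA-∆C library and was the only 1 of the 9 tested keratins to pass the test. *Krt14* had 1668, 1648 and 1629 CPM in wild type replicates 1, 2 and 3, and 2845, 3407 and 3310.2 CPM in YAP2-5SA-∆C replicates 1, 2 and 3. The coefficient of variation was 1.19% among the wild type libraries and 9.42% among the YAP2-5SA-∆C libraries, and every YAP2-5SA-∆C library was far above all of them. The mean was 1.93 times the wild type mean, and the change on the log2 scale was 0.95 (standard error 0.11, n = 3 each; FDR 0.0300 by the quasi-likelihood test of edgeR, adjusted by Benjamini-Hochberg over all tested genes). In this test 1.91% of all tested genes passed an FDR of 0.05, 1.44% as higher and 0.464% as lower in YAP2-5SA-∆C skin. The size of the change was steady, with a log2 fold change of 0.92 to 1.05 over the fits that each left out 1 library. The call was lost without wild type replicate 2 (edgeR FDR 0.172), wild type replicate 3 (edgeR FDR 0.129) or YAP2-5SA-∆C replicate 3 (edgeR FDR 0.0906), and in each of those fits 0 genes of the whole table passed.

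*Krt5*, the partner chain of keratin 14, did not pass the same threshold. It had 1055, 713 and 843 CPM in the wild type replicates and 1185, 1773 and 1331 CPM in the YAP2-5SA-∆C replicates. The genotypes did not overlap, but wild type replicate 1 and YAP2-5SA-∆C replicate 1 were close to each other. Means were 870.3 ± 172 and 1430 ± 306 CPM (SD, n = 3 each), a log2 difference of 0.72 (standard error 0.19; edgeR FDR 0.0805). Across all tested genes, 33.8% had genotypes that did not overlap, 15.5% as higher and 18.2% as lower in YAP2-5SA-∆C skin.

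*Krt15*, which marks basal cells and the follicle bulge, had 437, 278 and 289 CPM in wild type and 497, 554 and 381 CPM in YAP2-5SA-∆C skin. Wild type replicate 1 was above YAP2-5SA-∆C replicate 3, so the genotypes overlapped. Its log2 fold change was 0.51 (standard error 0.21, n = 3 each; edgeR FDR 0.173). Summed over the 3 basal keratins, the libraries had 2639 to 3160.0 CPM in wild type and 4528 to 5734 CPM in YAP2-5SA-∆C skin.

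The suprabasal keratins *Krt1*, *Krt77* and *Krt10* had higher means in YAP2-5SA-∆C skin, none of them passed the test with all 6 libraries, and each rested in good part on YAP2-5SA-∆C replicate 2. *Krt1*, the type II chain of early differentiation, had 1366, 1394 and 1544 CPM in wild type and 2005, 3194 and 1892 CPM in YAP2-5SA-∆C skin. The genotypes did not overlap, and replicate 2 was far above the other YAP2-5SA-∆C libraries. For *Krt1* the log2 fold change was 0.72 (standard error 0.21, n = 3 each; edgeR FDR 0.0887). Without replicate 2 it was smaller but less variable, at 0.46 (standard error 0.10) with an edgeR FDR of 0.0441, and *Krt1* then passed, as did 5.46% of all genes tested in that fit, 2.73% as higher.

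*Krt77* had 2832, 1885 and 2279 CPM in wild type and 3095, 5865 and 3175 CPM in YAP2-5SA-∆C skin. Here too the genotypes did not overlap, although wild type replicate 1 came near YAP2-5SA-∆C replicates 1 and 3. On the log2 scale the change was 0.79 (standard error 0.29, n = 3 each; edgeR FDR 0.139) and 0.45 (edgeR FDR 0.197) without YAP2-5SA-∆C replicate 2.

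*Krt10*, the type I partner of keratin 1, had 2374, 1668 and 2099 CPM in wild type and 2534, 4461 and 2163 CPM in YAP2-5SA-∆C skin. YAP2-5SA-∆C replicate 3 fell within the wild type range and replicate 2 was at more than any other library. The log2 fold change was 0.58 (standard error 0.28, n = 3 each; edgeR FDR 0.245), and without YAP2-5SA-∆C replicate 2 it was 0.22 (standard error 0.16; edgeR FDR 0.523). A gene annotated as antisense to *Krt10*, *Gm11940*, had 11 to 18 counts per library.

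*Krt2* was close to absent from this skin. It had 23, 18 and 7 counts in wild type and 8, 10 and 14 counts in YAP2-5SA-∆C skin, or 0.666 to 1.26 CPM and 0.445 to 0.874 CPM. The genotypes overlapped, and the gene was not tested, since it did not reach 1 CPM in the 3 libraries that the filter required. Summed over the 4 suprabasal keratins, the libraries had 4947 to 6574 CPM in wild type and 7231 to 13521 CPM in YAP2-5SA-∆C skin, with YAP2-5SA-∆C replicates 1 and 3 at 7634 and 7231 CPM.

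**Figure D1:**
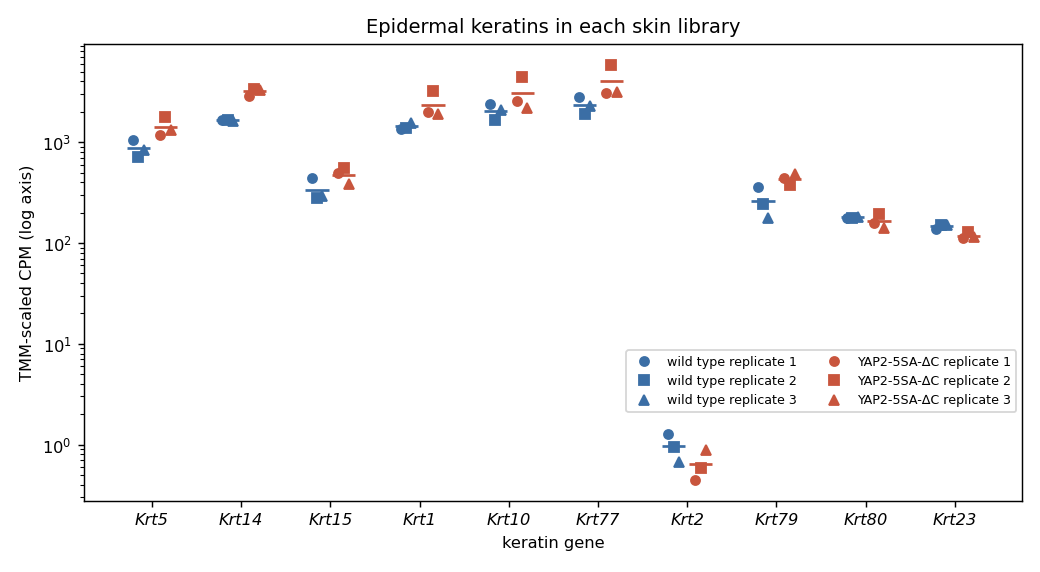
Level of each of the 10 keratin genes (x axis) in each skin library, in TMM-scaled CPM on a log axis (y axis). Points are libraries, with colour for genotype and shape for replicate number, and horizontal lines are the means of 3 libraries. The 3 wild type points of *Krt14* sit on top of each other at 1629 to 1668 CPM below all YAP2-5SA-∆C points. YAP2-5SA-∆C replicate 2 (red square) is the highest point for *Krt1*, *Krt10* and *Krt77*, and also for *Krt5*, *Krt14*, *Krt15* and *Krt80*.

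The keratins outside the basal and suprabasal pairs did not move in 1 direction. *Krt79* had 358, 246 and 179 CPM in wild type and 436, 372 and 483 CPM in YAP2-5SA-∆C skin. The genotypes did not overlap. YAP2-5SA-∆C replicate 2, the highest library for *Krt5*, *Krt14*, *Krt15*, *Krt1*, *Krt10*, *Krt77* and *Krt80*, was the lowest of its genotype for *Krt79*. The log2 fold change was 0.72 (standard error 0.24, n = 3 each; edgeR FDR 0.120), and 0.84 (edgeR FDR 0.108) without that library.

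*Krt23* was lower in all YAP2-5SA-∆C libraries. It had 138, 149.8 and 152 CPM in wild type and 113, 127 and 115 CPM in YAP2-5SA-∆C skin, with no overlap. The log2 fold change was -0.31 (standard error 0.07, n = 3 each) with an edgeR FDR of 0.0622, and -0.35 with an edgeR FDR of 0.0377 without YAP2-5SA-∆C replicate 2, a fit in which 2.74% of all tested genes passed as lower.

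*Krt80* had 178, 178 and 182 CPM in wild type and 158, 194 and 140.4 CPM in YAP2-5SA-∆C skin. The wild type libraries differed by a coefficient of variation of 1.46% and lay inside the YAP2-5SA-∆C range. Its log2 fold change was -0.13 (standard error 0.11, n = 3 each; edgeR FDR 0.506), with -0.25 (edgeR FDR 0.0866) without YAP2-5SA-∆C replicate 2 and -0.03 (edgeR FDR 0.894) without YAP2-5SA-∆C replicate 3. Summed over *Krt79*, *Krt80* and *Krt23*, the libraries had 513 to 675 CPM in wild type and 694 to 739 CPM in YAP2-5SA-∆C skin.

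Of the 9 tested keratins, 7 had a positive and 2 a negative log2 fold change, against 7194 and 7908 of all 15102 tested genes. For the 9 keratins, the genotypes did not overlap for 5 as higher (*Krt5*, *Krt14*, *Krt1*, *Krt77* and *Krt79*) and for 1 as lower (*Krt23*). Over all tested genes, 15.5% did not overlap as higher and 18.2% as lower. The median log2 fold change of the 9 keratins was 0.72, against -0.01 over all tested genes, and 0.45 without YAP2-5SA-∆C replicate 2. An unadjusted p-value under 0.05 was given to 7 of the 9 by edgeR's quasi-likelihood test, as to 26.3% of all tested genes. Some other tests of the same counts called more of them. The likelihood-ratio test of edgeR called 5 of the 9 (*Krt14*, *Krt5*, *Krt1*, *Krt77* and *Krt79*) and 10.4% of all tested genes, DESeq2 called 6 (*Krt14*, *Krt5*, *Krt1*, *Krt79*, *Krt23* and *Krt15*) and 10.5% of all, and voom called 1 (*Krt14*) and 1.65% of all.

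**Figure D2:**
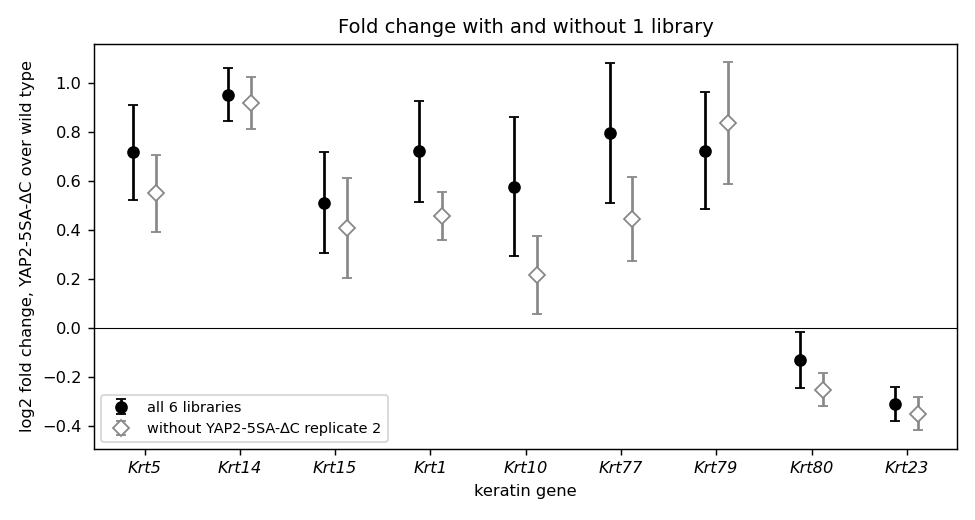
Log2 fold change of YAP2-5SA-∆C over wild type skin (y axis) for the 9 tested keratin genes (x axis), with all 6 libraries (filled circles) and without YAP2-5SA-∆C replicate 2 (open diamonds). Bars are plus and minus 1 standard error from edgeR's quasi-likelihood fit. *Krt14* stays at 0.95 and 0.92, whereas *Krt10* goes from 0.58 to 0.22 and *Krt77* from 0.79 to 0.45.

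The YAP2-5SA-∆C mice differed from each other by keratin. In replicate 2, *Krt77* was at 2.51, *Krt1* at 2.23, *Krt10* at 2.18, *Krt14* at 2.07 and *Krt5* at 2.04 times the wild type mean. In replicate 3, *Krt14* was at 2.01 and *Krt79* at 1.85 times the wild type mean while *Krt10* was at 1.06 times. In replicate 1, *Krt14* was at 1.73 and *Krt79* at 1.67 times, and *Krt10* at 1.24 times. Thus all YAP2-5SA-∆C mice had *Krt14* at 1.73 times the wild type mean or more, and only replicate 2 had *Krt10* above 1.24 times.

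Levels can be set against each other only per length, and CPM per kilobase of the transcript with the longest coding sequence are used for this. In wild type skin the order was *Krt10* (978 ± 170.0), *Krt14* (971 ± 11.6), *Krt77* (796 ± 162), *Krt1* (584 ± 39.1), *Krt5* (396 ± 78.4), *Krt15* (197 ± 52.2), *Krt79* (124 ± 43.2), *Krt23* (93.8 ± 4.79), *Krt80* (58.5 ± 0.852) and *Krt2* (0.366 ± 0.115 CPM per kilobase, SD, n = 3). The ranges of *Krt10* and *Krt14*, of *Krt14* and *Krt77*, of *Krt15* and *Krt79* and of *Krt79* and *Krt23* overlapped, and the other neighbours in this order did not. In YAP2-5SA-∆C skin *Krt14* came first with 1877 ± 177 CPM per kilobase, before *Krt10* with 1458 ± 589 and *Krt77* with 1380.0 ± 538, and the rest of the order was as in wild type. There the ranges overlapped for each pair of neighbours from *Krt14* down to *Krt5* and for *Krt15* and *Krt79*. With the length of all annotated exons of a gene in place of this transcript, a choice made after seeing the data, the wild type level of *Krt1* was 325 and fell below *Krt5*, and that of *Krt79* was 54.9 and fell below *Krt23*.

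Ratios between keratins of the same library do not depend on how the library is scaled, and they are given as a description with no test. The ratio of *Krt77* to *Krt10*, the most abundant type II and type I chains of the suprabasal group, was 0.852, 0.807 and 0.776 per kilobase in wild type and 0.873, 0.939 and 1.05 in YAP2-5SA-∆C skin. This was the only 1 of the 7 ratios examined whose genotypes did not overlap, with a difference of 0.23 on the log2 scale and 0.24 without YAP2-5SA-∆C replicate 2. The ratio of *Krt10* to *Krt14*, suprabasal to basal, was 1.15, 0.821 and 1.04 in wild type and 0.722, 1.06 and 0.530 in YAP2-5SA-∆C skin. It was lowest in YAP2-5SA-∆C replicates 1 and 3, and replicate 2 lay in the wild type range, so the difference on the log2 scale was -0.43 with all libraries, -0.69 without replicate 2 and -0.19 without replicate 3. The ratio of *Krt5* to its partner *Krt14* was 0.489, 0.335 and 0.400 in wild type and 0.322, 0.402 and 0.311 in YAP2-5SA-∆C skin, and that of *Krt1* to its partner *Krt10* was 0.491, 0.713 and 0.627 against 0.675, 0.611 and 0.746. Both partner ratios overlapped between the genotypes, and so did *Krt15* to *Krt14*, *Krt1* to *Krt5* and *Krt2* to *Krt10*, the last with 7 to 23 counts of *Krt2*.

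**Figure D3:**
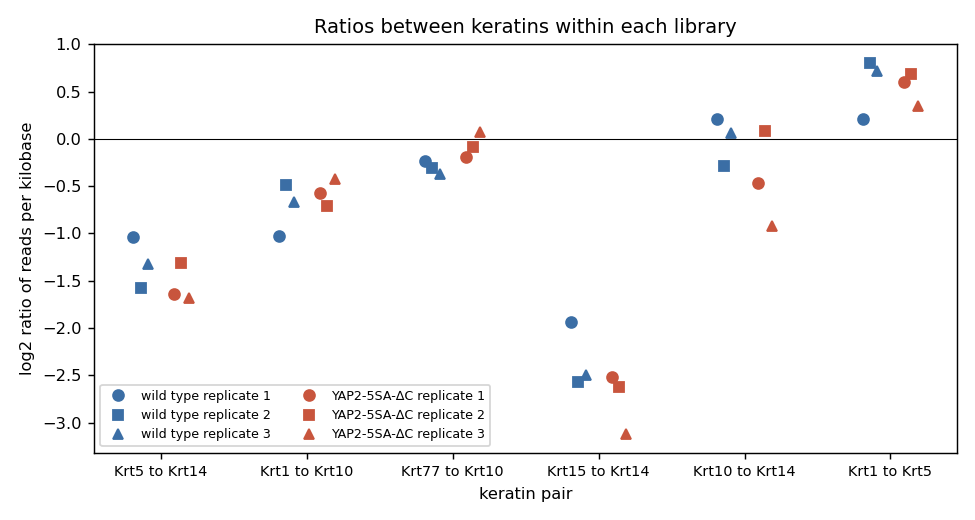
Log2 ratio of CPM per kilobase between keratin genes of the same library (y axis) for 6 keratin pairs (x axis). Points are libraries, with colour for genotype and shape for replicate number. The points of the genotypes are separate only for *Krt77* to *Krt10*, and for *Krt10* to *Krt14* YAP2-5SA-∆C replicates 1 and 3 are the lowest points while replicate 2 lies among the wild type points.

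The 10 genes lie in the keratin clusters of chromosomes 11 and 15 among keratins of hair and of stressed epidermis. The chromosome 11 cluster held 27 keratin genes from 99232761 to 100269871, of which 21 were tested, with 4 having a positive and 17 a negative log2 fold change. The chromosome 15 cluster held 26 keratin genes from 101347444 to 102032027, of which 23 were tested, with 8 positive and 15 negative. *Krt10* and *Krt5* thus had higher means in YAP2-5SA-∆C skin while the inner root sheath keratins beside them, *Krt25* to *Krt28* and *Krt71* to *Krt73*, had lower ones. All 23 measured keratins of the hair shaft and its sheaths were lower with no overlap between the genotypes, as were 18.2% of all tested genes. Their median log2 fold change was -1.66, and -1.15 without YAP2-5SA-∆C replicate 2. EdgeR's quasi-likelihood test called 0 of these 23, with all 23 at an unadjusted p-value under 0.05, against 26.3% of all tested genes. The fit without YAP2-5SA-∆C replicate 2 called 22 of them, and 5.46% of all genes tested in that fit. By the likelihood-ratio test 23 were called, by voom 0 and by DESeq2 0. The lowest p-values were those of *Krt75*, a companion layer keratin (log2 fold change -1.35, edgeR FDR 0.0965, and -0.96 without YAP2-5SA-∆C replicate 2), and *Krt84* (-2.26, edgeR FDR 0.106, and -1.78 without that library). Hair and sheath keratins summed to 13221 to 18428 CPM in wild type and to 6985, 1261 and 8103 CPM in YAP2-5SA-∆C replicates 1, 2 and 3. Replicate 2 thus had the lowest hair keratins and the highest *Krt1*, *Krt10*, *Krt77*, *Krt5*, *Krt14*, *Krt15* and *Krt80*. The part of these follicle transcripts in the levels of the 10 keratins was not tested.

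**Figure D4:**
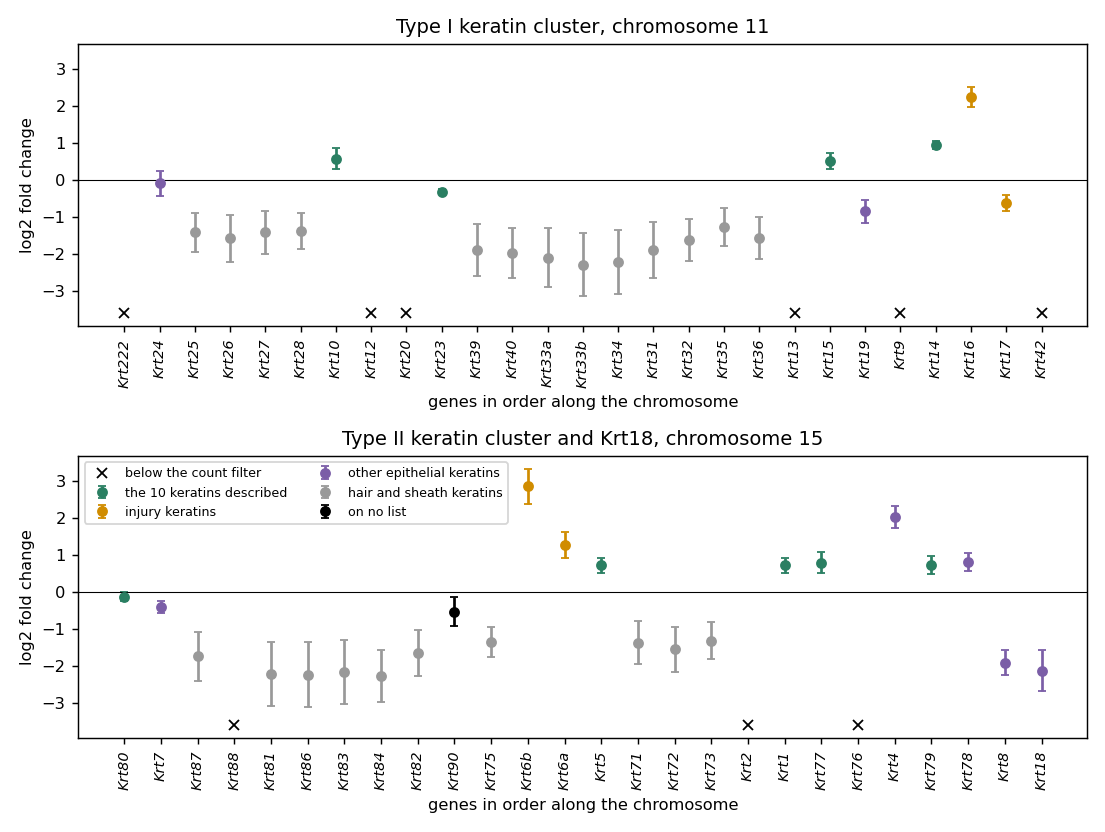
Log2 fold change of YAP2-5SA-∆C over wild type skin (y axis) for the keratin genes of chromosome 11 (upper panel) and chromosome 15 (lower panel), in their order along the chromosome (x axis, not to distance). Bars are plus and minus 1 standard error, colours are gene lists, and crosses mark genes below the count filter, which have no value. The tested hair and sheath keratins (grey) are all below 0, and of the 10 keratins described (green) *Krt10*, *Krt23* and *Krt5* have such genes on both sides.

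*Krt16* and *Krt6b*, keratins induced in injured and hyperproliferative epidermis, had larger fold changes than any of the 10, of 2.24 and 2.85 on the log2 scale. That of *Krt6b* was 3.17 without YAP2-5SA-∆C replicate 2. *Krt16*, a type I chain, had 56.2, 66.0 and 110.1 CPM in wild type and 343, 304 and 450.1 CPM in YAP2-5SA-∆C skin, and its partner *Krt6b* had 23.5, 44.6 and 72.5 CPM against 429, 181 and 400.1 CPM. Both rose in edgeR's quasi-likelihood test, with FDRs of 0.0300 and 0.0436. The call of *Krt16* was lost without wild type replicate 2 (edgeR FDR 0.177), wild type replicate 3 (0.0513), YAP2-5SA-∆C replicate 1 (0.0531) or YAP2-5SA-∆C replicate 3 (0.0906), and that of *Krt6b* without any 1 library other than YAP2-5SA-∆C replicate 2 (edgeR FDR 0.0639 to 0.186). *Krt6a* had 152, 261 and 190.0 CPM against 548, 262 and 642 CPM and did not pass (log2 fold change 1.27, edgeR FDR 0.0797). Without YAP2-5SA-∆C replicate 2 its log2 fold change was 1.58 (edgeR FDR 0.0147). YAP2-5SA-∆C replicate 2, the highest library for *Krt5*, *Krt14*, *Krt15*, *Krt1*, *Krt10*, *Krt77* and *Krt80*, was the lowest of its genotype for *Krt16*, *Krt6b* and *Krt6a*. *Krt17*, also a follicle keratin, had 962, 1213 and 1030.1 CPM against 730.2, 475 and 870.2 CPM (log2 fold change -0.63, edgeR FDR 0.128, and -0.40 without YAP2-5SA-∆C replicate 2). *Krt14*, *Krt16* and *Krt17*, and *Krt6a* and *Krt6b*, are similar in sequence, and as only uniquely mapped reads were counted, the division of reads among them is uncertain.

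Of 12 other epithelial keratins, 7 were tested, and 2 had an FDR below 0.05, both at low levels. These 2 reached 1 CPM in 3 libraries only through the genotype in which they were high, so a difference was built into their being tested, and their calls support nothing here. *Krt4*, a keratin of internal stratified epithelia, had 0.471 to 0.666 CPM in wild type and 1.56 to 2.53 CPM in YAP2-5SA-∆C skin (log2 fold change 2.03, edgeR FDR 0.0398). *Krt8*, a keratin of simple epithelia, had 2.64 to 3.72 CPM and 0.471 to 1.28 CPM (log2 fold change -1.92, edgeR FDR 0.0456). Each lost its call in every leave-one-out fit that tested it other than, for *Krt8*, the fit without YAP2-5SA-∆C replicate 2, with edgeR FDRs of 0.0607 to 0.186 for *Krt8* and 0.0652 to 0.178 for *Krt4*.

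Genes that act beside the keratins in the same layers were examined next. Over all tested genes, 7194 of 15102 had a positive log2 fold change, and 26.3% had an unadjusted p-value under 0.05 by edgeR's quasi-likelihood test. Of 13 genes of basal cell adhesion, 12 had a positive log2 fold change, with a median of 0.24 that was 0.16 without YAP2-5SA-∆C replicate 2, and edgeR's quasi-likelihood test called 0, with 4 at an unadjusted p-value under 0.05. Among other tests, the likelihood-ratio test called 1, voom 0 and DESeq2 3. The lowest p-value was that of *Itga6*, the integrin chain of hemidesmosomes (194 to 236 CPM against 285 to 370.5 CPM, log2 fold change 0.57, edgeR FDR 0.0616). It passed without YAP2-5SA-∆C replicate 2 (edgeR FDR 0.0340).

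Of 19 measured genes of suprabasal adhesion and cornification, 17 had a positive log2 fold change, with a median of 0.24 that was 0.06 without YAP2-5SA-∆C replicate 2. In edgeR's quasi-likelihood fit 0 of them were called, with 7 at an unadjusted p-value under 0.05, against 26.3% of all tested genes. By other methods, the likelihood-ratio test called 4, voom 0 and DESeq2 6. *Dsg1b*, a desmosomal cadherin of differentiated cells, had 215 to 231 CPM against 274 to 330 CPM (log2 fold change 0.43, edgeR FDR 0.0505). *Krtdap*, a secreted protein of differentiating keratinocytes, had 466, 413 and 440 CPM against 670.0, 1048 and 655 CPM (0.85, edgeR FDR 0.0596), with YAP2-5SA-∆C replicate 2 the highest, as for *Krt10*. Both passed without that library, with edgeR FDRs of 0.0267 and 0.0125.

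Of 24 transcription factors and Notch pathway genes known to control keratin genes or keratinocyte differentiation, 0 rose and 1 fell in edgeR's quasi-likelihood test, with a median log2 fold change of 0.03. They went both ways, with 12 of 24 at an unadjusted p-value under 0.05, against 26.3% of all tested genes. With no overlap between the genotypes, 6 were higher and 6 lower, against 15.5% and 18.2% of all tested genes. The likelihood-ratio test called 3, voom 1 and DESeq2 6. *Notch1*, a receptor that promotes the switch from basal to suprabasal cells, had 336, 323 and 319 CPM in wild type and 242, 228 and 254 CPM in YAP2-5SA-∆C skin. The libraries of the genotypes were clearly apart, and the log2 fold change was -0.44 (standard error 0.06, n = 3 each; edgeR FDR 0.0398). The call was lost in each leave-one-out fit (edgeR FDR 0.0649 to 0.178) other than that without YAP2-5SA-∆C replicate 2 (edgeR FDR 0.0216). *Trp63*, which encodes the basal cell factor p63, was named after its values were seen, as a known regulator of *Krt5* and *Krt14*. It had 275 to 298 CPM against 287 to 321 CPM (log2 fold change 0.08, edgeR FDR 0.459).

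Of 8 genes of the upper follicle, where *Krt79* is expressed, and of 8 genes of the bulge, where *Krt15* is expressed, edgeR's quasi-likelihood test called 0 each, with 3 and 1 at an unadjusted p-value under 0.05. Over all tested genes, 26.3% were under that value. Other tests called few, with 0 and 1 by the likelihood-ratio test, 0 and 0 by voom, and 2 and 1 by DESeq2. The lowest p-values of the upper follicle genes were those of the defensin *Defb6* (log2 fold change 0.57, edgeR FDR 0.133) and the protease *Klk10* (-0.58, edgeR FDR 0.135, and -0.35 without YAP2-5SA-∆C replicate 2), and *Defb6* passed without wild type replicate 1 (edgeR FDR 0.0369). Those of the bulge genes were of the stem cell factor *Nfatc1* (0.58, edgeR FDR 0.0691) and the stem cell receptor *Lgr5* (-0.28, edgeR FDR 0.220, and -0.19 without YAP2-5SA-∆C replicate 2).

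**Figure D5:**
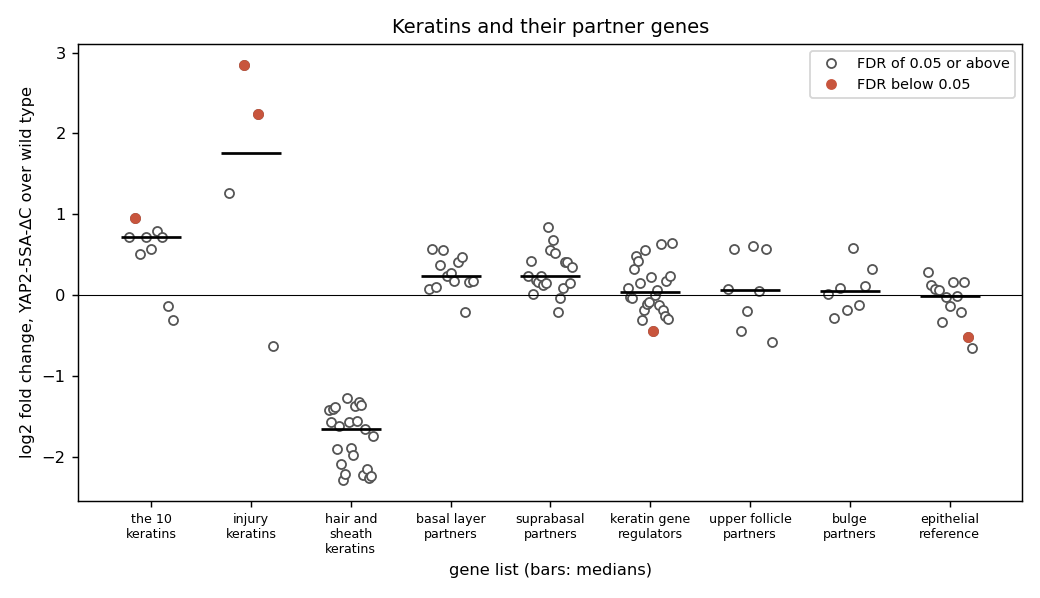
Log2 fold change of YAP2-5SA-∆C over wild type skin (y axis) for the tested genes of the 10 keratins and of 8 other gene lists (x axis). Each circle is a gene, filled where the FDR of edgeR's quasi-likelihood test was below 0.05, and bars are medians. The medians are 0.72 for the 10 keratins, 0.24 for both the basal and the suprabasal partners, 0.03 for the regulators and -1.66 for the hair and sheath keratins.

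Marker genes of other cell types were examined in the same libraries, in which edgeR's quasi-likelihood test called 1.91% of all tested genes. A reference of 13 general epithelial genes summed to 2870 to 2974 CPM in wild type and 2787 to 3145 CPM in YAP2-5SA-∆C skin, with overlap, and had a median log2 fold change of -0.01 (0 rose and 1, *St14*, fell, with an edgeR FDR of 0.0451). Scaled to these genes in place of TMM, the log2 fold change of *Krt14* was 1.03 (edgeR FDR 0.0225, in a fit that called 4.85% of all genes) and those of the 9 tested keratins kept their signs. Marker sums did not overlap and were higher in YAP2-5SA-∆C skin for macrophages (334 to 401 against 482 to 529 CPM, 2 of 6 genes called), mast cells (154 to 173 against 196 to 247 CPM, 1 of 5 called), sebocytes (283 to 476 against 617 to 709 CPM, 0 of 5 called) and, only barely apart, endothelial cells (96.1 to 114.7 against 115.1 to 138 CPM, 0 of 5 called), and lower for melanocytes (408 to 478 against 151 to 261 CPM, 2 of 5 called). They overlapped for fibroblasts (9449 to 12801 against 12256 to 15936 CPM), adipocytes (622 to 869 against 544 to 901 CPM), skeletal muscle (1037 to 5520 against 936 to 2645 CPM) and T cells (6.18 to 8.03 against 7.68 to 11.1 CPM), with 0 genes called in each of these lists. The called markers were *Csf1r* and *Mrc1* (macrophage), *Cma1* (mast cell), and *Dct* and *Tyrp1* (melanocyte), with edgeR FDRs of 0.0341 to 0.0467, and like *St14* they did not pass in the fits without wild type replicate 2 (highest edgeR FDR 0.187), YAP2-5SA-∆C replicate 3 or wild type replicate 3. No marker was at 0 in any library. Wild type replicate 1, the highest wild type library for *Krt5*, *Krt15*, *Krt10*, *Krt77* and *Krt79*, had the lowest muscle sum of its genotype. The part of these other cells in the keratin levels was not tested.

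The protein-coding genes whose log2 CPM followed *Krt14* most closely over the 6 libraries were *Csf2rb2* (Pearson r = 0.998), *Cyp27a1*, *Zfp52*, *Adam8* and *Tmem125* (0.994). Those that followed *Krt10* most closely were *Tmppe* (Pearson r = 0.998), *Rab22a*, *Ahnak2*, *Tnfaip1* and *Khsrp* (0.997). These are the highest values among all tested protein-coding genes over 6 libraries of 2 genotypes, so they describe the shape of the pattern and carry no test. The genes like *Krt14* had all wild type libraries below all YAP2-5SA-∆C libraries, as for *Tmem125* with 5.23 to 5.81 CPM against 9.34 to 12.2 CPM. Those like *Krt10* had their highest level in YAP2-5SA-∆C replicate 2, as for *Ahnak2* with 169 to 233 CPM in wild type and 245, 402 and 203 CPM in the YAP2-5SA-∆C replicates.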

How the data were processed

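Whole skin RNA of 6 mice was analysed from raw counts per Ensembl gene, as the authors deposited them. Reads had been aligned by the authors to GRCm38 using TopHat2 2.0.12 and Bowtie2 2.1.0 (versions as in the submitters' processing notes), and uniquely mapped reads had been counted with HTSeq. The strand setting and annotation release are not given in the sources used here, so *Krt10* and *Krt80*, which overlap antisense genes, are uncertain. The labels name a total RNA kit and the methods mRNA libraries. All 6 columns were matched to mice by name.

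The filter was a minimum of 1 CPM in 3 or more libraries, and scaling was by TMM. Genotype was tested with edgeR 4.0.16 (glmQLFit and glmQLFTest, bias-adjusted form) in R 4.3.3, with Benjamini-Hochberg adjustment over all tested genes and a threshold of 0.05. Standard errors are the size of the log2 fold change divided by the square root of F. Alternatives were RLE, upper-quartile and epithelial scaling, protein-coding genes only, other filters, the likelihood-ratio test, voom (limma 3.58.1), DESeq2 1.42.0, a replicate block and fits that each left out 1 library. Scripts were tested on simulated counts. GENCODE M21, on the same build, named 26021 of the 26579 identifiers, and promoters are from RefSeq. The p-values set the difference between genotypes against the spread between mice of a group, which is estimated with information shared across genes.

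The members and gene lists were chosen with earlier results of these data known. Named were the 10 keratins, the injury keratins, up to 4 called genes of each list or the 2 with the lowest p, and the 5 genes most like *Krt14* and *Krt10*. *Gm11940*, *St14*, *Trp63*, the called cell type markers, *Krt25* to *Krt28* and *Krt71* to *Krt73* were named after their values were seen. *Krt85*, *Eppk1* and *Flg* were not analysed here. A further gene that this rule names is not reported here.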

Additional observations from a re-analysis of the deposited data

How the results depend on the processing

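Over 16 alternatives, the log2 fold changes of the 9 tested keratins never changed sign, and 129 of 144 values stayed on the same side of the FDR threshold, with 11 passing it and 4 losing it. *Krt14* passed under 12 of the 16. Of the 10 keratins, 5 were called by the likelihood-ratio test, 6 by DESeq2 and 0 with a replicate block, and 0 to 3 when each library was left out. Correlations of deviations showed no pairing by replicate number, at -0.33, -0.23 and -0.05 for same-numbered libraries and -0.07 to 0.27 for the others. With 3 mice a group and litters not stated, this check cannot decide if the mice were paired. The block left 0 genes called of the whole table in either direction, with 2949 at an unadjusted p-value under 0.05, and 0 injury keratins, other epithelial keratins and regulators. Over the whole table, the 288 calls (218 higher, 70 lower) became 733 (639 higher) when scaled to epithelial genes, 497 (373 higher, 124 lower) with no count filter, 339 higher with upper-quartile scaling, 1568 (833 higher, 735 lower) with the likelihood-ratio test and 1583 (958 higher, 625 lower) with DESeq2. The share of calls that were higher was 75.7% with TMM and 87.2% with epithelial scaling. Leaving out each library gave 0 to 817 calls (0 to 408 higher, 0 to 409 lower), with 142 when wild type replicate 1, 83 when YAP2-5SA-∆C replicate 1 and 817 when YAP2-5SA-∆C replicate 2 was left out. There were 0 calls, but 2726, 2844 and 3691 unadjusted p-values under 0.05, in the fits that lacked wild type replicate 2, wild type replicate 3 and YAP2-5SA-∆C replicate 3.

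With the likelihood-ratio test, calls were 4 among injury keratins, 4 among other epithelial keratins, 23 among hair and sheath keratins, 1 among basal partners, 4 among suprabasal partners, 3 among regulators and 1 among bulge genes. With DESeq2 they were 4 among injury keratins, 4 among other epithelial keratins, 3 among basal partners, 6 among suprabasal partners, 6 among regulators, 1 among bulge genes and 2 among upper follicle genes. Scaling to epithelial genes called 1 basal partner, 4 suprabasal partners, 2 regulators and 1 bulge gene. With no count filter 1 basal and 2 suprabasal partners were called, RLE scaling, upper-quartile scaling and protein-coding genes only each called 1 suprabasal partner, at least 10 counts in every library gave 1 suprabasal partner and 0 other epithelial keratins (*Krt4* and *Krt8* were then not tested), and voom gave 1 other epithelial keratin. Leaving out each library gave 0 to 3 injury keratins, 0 to 2 other epithelial keratins, 0 to 22 hair and sheath keratins, 0 to 1 basal partners, 0 to 2 suprabasal partners, 0 to 3 regulators and 0 to 1 upper follicle genes. Apart from *Krt4* and *Krt8*, the causes were not tested. With 3 mice a group, a fit without 1 library rests on 5, and *Krt2*, with 7 to 23 counts, was too rare to test.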
